A study of Homo sapiens with 12 samples.

Results

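The genes described here are 10 secreted factors that act on blood and lymph vessels: the VEGF family ligands VEGFA, VEGFB, VEGFC and PGF, the vasoactive peptides ADM and EDN1, the angiopoietin-like protein ANGPTL4, and ESM1, ANGPT1 and ANGPT2. They were taken by name, as the rows of the deposited count table whose Ensembl identifiers carry these symbols, and all 10 were found among the 62702 genes read. RNA was measured in 786-O, an established clear cell renal cell carcinoma (ccRCC) line, by BRB-seq, which barcodes and sequences the 3′ ends of polyadenylated RNA. The 12 libraries form 4 groups of 3: parental cells, cells with shRNA against HIF2A (shHIF2A), cells with shRNAs against the 3 AP-1 subunits cJUN, JUNB and JUND (shJUNs), and cells with shRNAs against YAP and TAZ (shYAPTAZ). Every group, the parental one included, received doxycycline for 72 hours. Derived lines had been selected with puromycin, blasticidin or hygromycin according to how many genes were silenced. The labels call the replicates technical, so the p-values below measure only the spread between these libraries. A line carrying a control shRNA was not analysed here, and the effect of a knockdown cannot be told apart from other differences between a derived line and parental cells.

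VEGF ligands bind receptor tyrosine kinases on endothelial cells: VEGFA acts mainly through KDR, VEGFB and PGF bind FLT1, and VEGFC acts through FLT4 on lymphatic vessels. Clear cell renal tumours usually lose VHL, which leaves HIF2A stable, and VEGFA is a well-known HIF target whose pathway is blocked by drugs in this disease. The title of the series poses the question behind the comparisons: whether HIF2A depends on AP-1 and on YAP and TAZ in this tumour type.

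Total counts were between 2272459 and 4469956 per library, and 3 counts in 1 library correspond to 0.671 to 1.32 CPM. CPM, the unit of level below, is a gene's count as parts of 1e6 of the library size after TMM scaling, given as mean ± SD over 3 libraries. Differences were tested with the edgeR quasi-likelihood test over 12301 genes, and a call means that the p, adjusted by Benjamini-Hochberg, was under 0.05. Of the genes meant to be silenced, EPAS1, which encodes HIF2A, was 12.7-fold lower in shHIF2A than in parental cells (adjusted p = 6.38e-07). In shJUNs, JUN was 1.79-fold lower (adjusted p = 0.00215), JUNB 1.70-fold lower (adjusted p = 0.0340) with overlapping libraries and a call lost in 7 of 20 alternative ways of processing (adjusted p up to 0.2002), and JUND 9.20-fold lower (adjusted p = 1.41e-11). In shYAPTAZ, YAP1 was 4.78-fold lower (adjusted p = 1.20e-06) and WWTR1, which encodes TAZ, 2.04-fold lower (adjusted p = 2.23e-05). Several of these genes also differed outside their own knockdown. JUN fell 1.91-fold in shHIF2A (adjusted p = 0.00103), beside its 1.79-fold fall in shJUNs. JUND fell 1.61-fold in shHIF2A (adjusted p = 0.00312) and 2.09-fold in shYAPTAZ (adjusted p = 2.71e-05). WWTR1 rose 1.62-fold in shHIF2A (adjusted p = 0.00181) and 1.42-fold in shJUNs (adjusted p = 0.0169), the second a call lost in 3 of 20 alternatives (adjusted p up to 0.0846). EPAS1 fell 5.47-fold in shJUNs (adjusted p = 1.78e-05) and 1.80-fold in shYAPTAZ (adjusted p = 0.0361). In shYAPTAZ its libraries overlapped with parental ones. The call there was lost in 5 of 20 alternatives, among them without parental replicate 1 (adjusted p = 0.173). HIF1A, the sister subunit, was at 137 ± 20.2 CPM in shYAPTAZ against 6.14 ± 2.27 CPM in parental cells (22-fold, adjusted p = 1.25e-10). In shHIF2A it was 1.86-fold higher (adjusted p = 0.0405), a call lost in 11 of 20 alternatives. ARNT, the partner of both, was not called against parental cells in shHIF2A, shJUNs or shYAPTAZ (adjusted p = 0.0570, 0.427 and 0.361). All 7 markers of the renal carcinoma line had counts. Of these, 3 rose and 2 fell in shHIF2A, 3 rose in shJUNs and 2 rose in shYAPTAZ. Beside them, 18.6%, 19.3% and 25.3% of all tested genes were called in the 3 lines, so the last count is near that share. CDH6 and VIM are named after their values were seen. CDH6 was 4.05-fold, 3.07-fold and 5.25-fold higher in the 3 lines (adjusted p = 0.00285, 0.00909 and 0.000636). VIM went the other way in shHIF2A, at 9063 to 9766 CPM against 13379 to 16928 CPM in parental cells. KRT18 and KRT8 had a smaller p than VIM and CDH6 in the test among the 4 groups. KRT8 held 155 to 210 CPM in parental cells, 324 to 388 in shHIF2A, 560 to 659 in shJUNs and 253 to 439 in shYAPTAZ. In the same order KRT18 held 92.8 to 136, 269 to 328, 385 to 441 and 108 to 184 CPM. The part of these changes in the results below was not tested. By contrast, 5 of 8 endothelial markers (PECAM1, CDH5, EMCN, CLDN5 and ERG) had none in any library and the 8 together reached at most 2.79 CPM. The 5 blood cell markers summed to at most 1.05 CPM.

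Of the 10 genes, 7 passed the filter on low counts (VEGFA, VEGFB, VEGFC, PGF, ANGPTL4, ADM and EDN1). ESM1, ANGPT1 and ANGPT2 did not and have no test. VEGFA, ADM and EDN1 fell in all 3 knockdowns against parental cells, and VEGFC, PGF and ANGPTL4 were not called in any comparison. VEGFB fell by a smaller amount in shHIF2A and shJUNs. Its libraries overlapped with parental ones there, and each call was lost in 11 of 20 alternatives. In shHIF2A, 4 of the 7 tested genes fell and none rose, where 18.6% of all tested genes were called, 8.8% lower and 9.84% higher. In shJUNs the count was also 4 lower and none higher, beside 19.3% of all tested genes called, 8.93% lower and 10.3% higher. In shYAPTAZ, 3 fell and none rose, beside 25.3% called, 12.3% lower and 13% higher. The 3 comparisons share the parental libraries, so their calls are not independent. In bulk RNA, fewer cells that express a gene and less of its RNA per cell cannot be told apart.

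**Figure D1:**
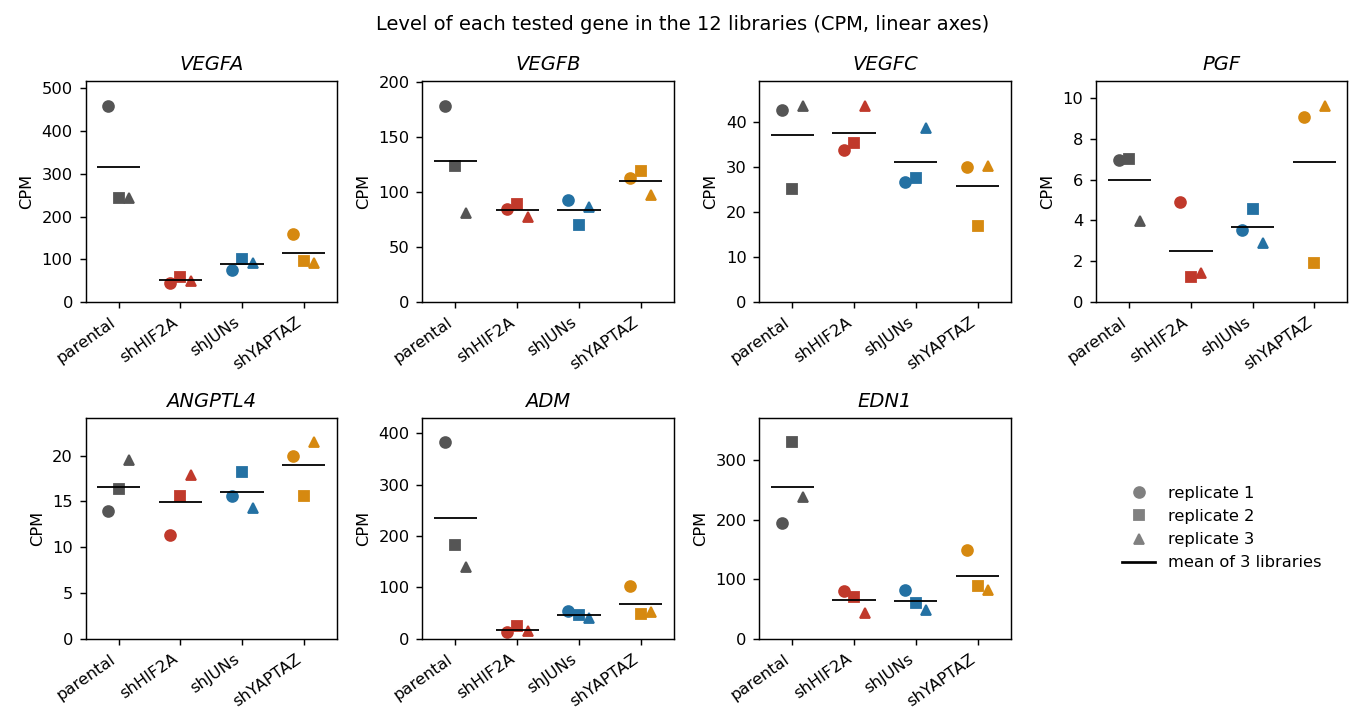
Level of each of the 7 tested genes in every library, in CPM on linear axes that start at 0, with 1 panel per gene, 1 point per library shaped by replicate number and a bar at the mean of 3. For VEGFA, ADM and EDN1 all parental points lie above all points of the knockdowns, whereas the groups of VEGFB, VEGFC, PGF and ANGPTL4 overlap with parental cells.

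Promoter sequences are given first for the tested genes on which the contrast turns, which are ADM and EDN1, which fell in every knockdown, VEGFB, with its smaller fall, and ANGPTL4, which was not called. Each is the 250 bases before a RefSeq start (GRCh38.p14), read 5′ to 3′ on the plus strand, with capitals at the HIF core motif (ACGTG or GCGTG, searched on both strands, so that CACGT is a match too). The windows are chr11:10304823-10305072 for ADM, chr6:12290111-12290360 for EDN1, chr11:64234334-64234583 for VEGFB and chr19:8363905-8364154 for ANGPTL4, whose RefSeq start lies 866 bases inside the gene of the deposited table. For EDN1, RefSeq lists 3 starts and the one at the deposited gene start was used.
ADM: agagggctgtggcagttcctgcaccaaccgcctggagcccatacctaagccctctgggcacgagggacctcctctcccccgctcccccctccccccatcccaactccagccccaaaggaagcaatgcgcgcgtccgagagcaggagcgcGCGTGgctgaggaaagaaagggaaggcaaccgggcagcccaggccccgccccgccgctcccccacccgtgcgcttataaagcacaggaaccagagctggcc
EDN1: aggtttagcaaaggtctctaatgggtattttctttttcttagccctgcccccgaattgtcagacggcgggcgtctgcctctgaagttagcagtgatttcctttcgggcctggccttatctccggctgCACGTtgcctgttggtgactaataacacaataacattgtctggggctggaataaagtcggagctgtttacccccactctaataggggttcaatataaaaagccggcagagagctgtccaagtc
VEGFB: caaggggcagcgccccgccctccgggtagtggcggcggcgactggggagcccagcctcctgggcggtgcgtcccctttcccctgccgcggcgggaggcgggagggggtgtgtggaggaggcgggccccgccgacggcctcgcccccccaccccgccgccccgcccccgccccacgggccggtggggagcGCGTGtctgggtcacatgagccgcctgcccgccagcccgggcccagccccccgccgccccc
ANGPTL4: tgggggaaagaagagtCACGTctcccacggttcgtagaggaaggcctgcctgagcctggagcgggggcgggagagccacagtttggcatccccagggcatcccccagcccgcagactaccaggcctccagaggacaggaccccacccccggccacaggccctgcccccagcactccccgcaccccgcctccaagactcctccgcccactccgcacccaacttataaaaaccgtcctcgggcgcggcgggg
The match ends 97 bases before the start in ADM, 119 in EDN1, 57 in VEGFB and 230 in ANGPTL4. RefSeq windows were matched for 7 of the 10 genes (VEGFB, VEGFC, PGF, ANGPTL4, ADM, EDN1 and ESM1), and the core motif was present in 7 of these 7, against 43.2% of 35116 windows of the same length. It was thus present before ADM and EDN1, which fell, and before ANGPTL4, which was not called. VEGFA, which also fell in every knockdown, had no entry among the reference promoters, nor did ANGPT1 and ANGPT2, so the motif counts do not cover them. The ESM1 window is a weaker case, since its RefSeq start lies 37078 bases inside the gene of the deposited table and the window begins inside an annotated exon. For VEGFC the bases after the RefSeq start matched no GENCODE 29 transcript. The AP-1 motif (TGACTCA or TGAGTCA) was in 0 of 7 windows against 4.2% of all, and the TEAD motif (GGAATG, both strands), which YAP and TAZ partners bind, in 0 of 7 against 11.9%. A match is a description of letters and not of binding.

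VEGFA, the main growth signal for endothelial cells, lies at chr6:43770184-43786487 on the plus strand (hg38, ENSG00000112715). Its parental levels were 459.7, 244 and 242 CPM in replicates 1 to 3. They were 44.9, 57.4 and 49.7 CPM in shHIF2A, 74.3, 101 and 91.6 CPM in shJUNs, and 160.3, 95.2 and 90.8 CPM in shYAPTAZ. The lowest parental library was above the highest library of every knockdown, and parental replicate 1 and shYAPTAZ replicate 1 stood above the other libraries of their groups. The group means were 315 ± 125 CPM in parental cells, 50.7 ± 6.28 in shHIF2A, 89.1 ± 13.7 in shJUNs and 115 ± 38.9 in shYAPTAZ. VEGFA fell 6.21-fold in shHIF2A (log2 fold change -2.63, SE 0.257, adjusted p = 7.1e-07). Its fall was 3.53-fold in shJUNs (-1.82, SE 0.246, adjusted p = 2.79e-05) and 2.74-fold in shYAPTAZ (-1.46, SE 0.244, adjusted p = 0.000183). Without parental replicate 1 the falls were 4.83-fold, 2.73-fold and 2.12-fold, and all 3 were still called (adjusted p = 2.9e-07, 5.78e-05 and 0.000842).

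ADM encodes adrenomedullin, a vasodilator peptide that also maintains the endothelial barrier, and lies at chr11:10305073-10307397 on the plus strand (ENSG00000148926). Parental libraries held 382, 182 and 139 CPM. The shHIF2A libraries held 12.8, 25.3 and 14.7 CPM, the shJUNs libraries 54.6, 46.7 and 39.6 CPM, and the shYAPTAZ libraries 103, 47.1 and 52.3 CPM. No knockdown library reached the lowest parental value, and replicate 1 was again the highest in both the parental and the shYAPTAZ group. Against parental cells ADM fell 13.3-fold in shHIF2A (log2 fold change -3.73, SE 0.426, adjusted p = 5.08e-05). The falls were 4.98-fold in shJUNs (-2.32, SE 0.386, adjusted p = 0.000931) and 3.51-fold in shYAPTAZ (-1.81, SE 0.381, adjusted p = 0.00329). They were 9.18-fold, 3.42-fold and 2.41-fold without parental replicate 1 (adjusted p = 1.45e-06, 0.000398 and 0.00455).

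EDN1 encodes endothelin-1, a vasoconstrictor peptide that is cut from a precursor, and lies at chr6:12290361-12297194 on the plus strand (ENSG00000078401). Its parental levels were 195, 331 and 238 CPM, with replicate 1 the lowest here. Levels were 80.9, 70.5 and 43.4 CPM in shHIF2A, 81.4, 60.4 and 47.8 CPM in shJUNs, and 148, 88.5 and 81.4 CPM in shYAPTAZ. The parental libraries again lay above all others. EDN1 fell 3.91-fold in shHIF2A (log2 fold change -1.97, SE 0.273, adjusted p = 6.65e-05), 4.03-fold in shJUNs (-2.01, SE 0.271, adjusted p = 3.97e-05) and 2.42-fold in shYAPTAZ (-1.27, SE 0.266, adjusted p = 0.00166). Unlike VEGFA and ADM, whose lowest mean was in shHIF2A, EDN1 was at a like level in shHIF2A (64.9 ± 19.3 CPM) and shJUNs (63.2 ± 17 CPM). That difference was -0.04 on the log2 scale, with a 95% interval from -0.57 to 0.49 (adjusted p = 0.954).

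VEGFB, a FLT1 ligand tied more to heart muscle and fatty acid handling than to vessel sprouting, lies at chr11:64234584-64239264 on the plus strand (ENSG00000173511). Parental libraries held 179, 124 and 81.4 CPM. Values were 84.6, 88.9 and 77.4 CPM in shHIF2A, 93.2, 70.2 and 86.5 CPM in shJUNs, and 113, 119 and 97.6 CPM in shYAPTAZ. Parental replicate 3 lay inside the range of shHIF2A and shJUNs, and parental replicate 1 lay above all other libraries. VEGFB was 1.53-fold lower in shHIF2A (log2 fold change -0.61, SE 0.214, adjusted p = 0.04996) and 1.53-fold lower in shJUNs (-0.61, SE 0.213, adjusted p = 0.0453). In shYAPTAZ it was 1.17-fold lower, which was not called (adjusted p = 0.489). Without parental replicate 1 the differences were 1.23-fold in both shHIF2A and shJUNs and neither was called (adjusted p = 0.352 and 0.358). Each of these calls was lost in 11 of 20 other ways of processing.

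VEGFC, the main growth factor of lymphatic vessels, lies at chr4:176683538-176792922 on the minus strand (ENSG00000150630). Parental levels were 42.6, 25.0 and 43.5 CPM, followed by 33.6, 35.2 and 43.4 CPM in shHIF2A, 26.6, 27.5 and 38.7 CPM in shJUNs, and 30.0, 16.9 and 30.1 in shYAPTAZ. All 3 knockdowns overlapped with parental cells. The mean of shYAPTAZ (25.7 ± 7.60 CPM) was the lowest, 1.44-fold under the parental mean, with an interval from -1.08 to 0.02 on the log2 scale (adjusted p = 0.182). In shHIF2A the difference from parental cells was 0.02, with an interval from -0.52 to 0.56 (adjusted p = 0.978).

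PGF encodes placental growth factor, which binds FLT1, and lies at chr14:74941834-74955626 on the minus strand (ENSG00000119630). It had 4 to 40 counts per library. Parental levels were 6.98, 7.03 and 3.96 CPM, followed by 4.93, 1.25 and 1.40 CPM in shHIF2A, 3.55, 4.54 and 2.91 CPM in shJUNs, and 9.08, 1.91 and 9.64 in shYAPTAZ. The shYAPTAZ group spanned nearly the whole range, with replicate 2 low and replicate 3 the highest of all libraries. PGF was 2.32-fold lower in shHIF2A than in parental cells, with an interval from -2.57 to 0.15 on the log2 scale (log2 difference -1.21, adjusted p = 0.239). In that group replicate 1 stood above the others, and the difference was -2.14 without it, which was not called either (adjusted p = 0.0853).

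ANGPTL4, an inhibitor of lipoprotein lipase that also acts on vessel permeability, lies at chr19:8363289-8374370 on the plus strand (ENSG00000167772). It is widely known as a HIF and PPAR target. Parental levels were 14.0, 16.3 and 19.5 CPM, followed by 11.3, 15.6 and 17.9 CPM in shHIF2A, 15.5, 18.2 and 14.3 CPM in shJUNs, and 19.97, 15.6 and 21.4 in shYAPTAZ. The 4 groups overlapped. The log2 difference from parental cells was -0.16 in shHIF2A, with an interval from -0.78 to 0.46 (adjusted p = 0.777). It was -0.06 in shJUNs, with an interval from -0.66 to 0.55 (adjusted p = 0.930), and 0.19 in shYAPTAZ (adjusted p = 0.700). These intervals hold changes of modest size, but none as large as the falls of VEGFA or ADM in the same libraries.

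ESM1 (chr5:54977867-55022671, minus strand), which encodes endocan, a proteoglycan secreted by sprouting endothelium, had 0 of 41767006 counts over the 12 libraries, which allows a level of up to 0.0718 CPM over them together. ANGPT1 (chr8:107249482-107498055, minus strand), the ligand that keeps vessels stable through the receptor TEK, had 4 counts in shJUNs replicate 2, 3 counts in shYAPTAZ replicate 1 and none elsewhere. ANGPT2 (chr8:6499632-6563409, minus strand), which opposes ANGPT1 at TEK, had 1 count in each of 4 libraries: parental replicate 3, shHIF2A replicate 2, and shJUNs replicates 1 and 3. ANGPT2 lies inside MCPH1, a gene on the opposite strand with 401 counts, and the sources used here do not say how reads in both were counted. At these depths no difference between groups could be detected for these 3 genes.

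**Figure D2:**
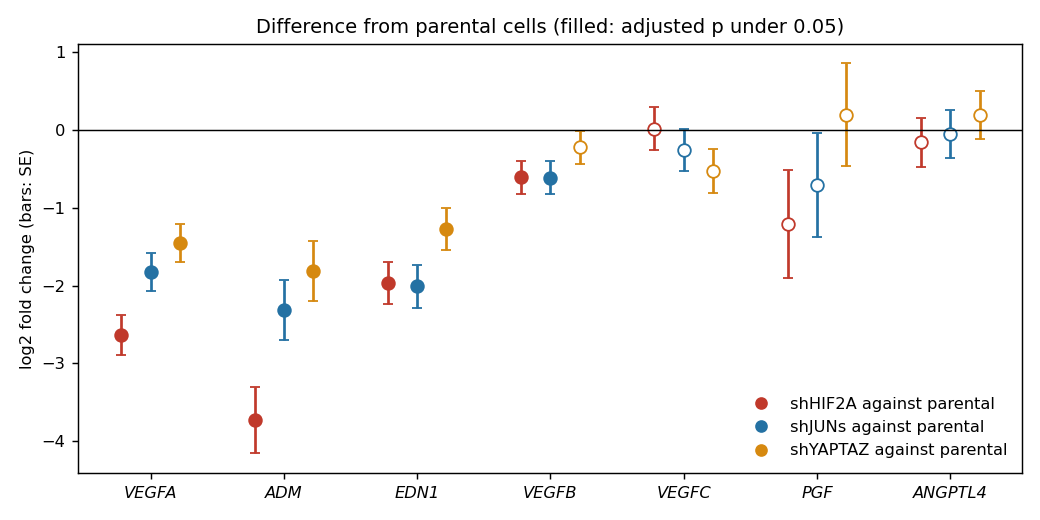
Log2 fold change of each tested gene against parental cells (vertical axis, bars of 1 SE) in the 3 knockdowns, with filled points where the edgeR adjusted p was under 0.05. VEGFA, ADM and EDN1 are filled and below 0 in all 3 knockdowns, VEGFB is filled in 2, and VEGFC, PGF and ANGPTL4 are open throughout.

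The order of the group means differed between genes. For VEGFA and ADM it ran from parental cells over shYAPTAZ and shJUNs down to shHIF2A. Parental cells and shYAPTAZ differed by the test for both genes, whereas shYAPTAZ and shJUNs did not (VEGFA 1.29-fold, adjusted p = 0.348, and ADM 1.42-fold, adjusted p = 0.430). Without shYAPTAZ replicate 1 the latter differences were 1.04-fold for VEGFA (adjusted p = 0.908) and 1.06-fold for ADM (adjusted p = 0.922). The order of shYAPTAZ and shJUNs thus rested largely on that library. The libraries of shJUNs lay above all those of shHIF2A for both genes. VEGFA was 1.76-fold higher there, with an interval from 0.32 to 1.30 on the log2 scale (adjusted p = 0.0526), and ADM 2.67-fold higher, with an interval from 0.60 to 2.23 (adjusted p = 0.0559). For EDN1 the order ran from parental cells over shYAPTAZ to shHIF2A and shJUNs, and the step from shYAPTAZ to shHIF2A was 1.62-fold (adjusted p = 0.0846) with no overlap of libraries. DESeq2 called that step (adjusted p = 0.0468), as did 3 of the other 19 alternatives. Without shYAPTAZ replicate 1 the step was 1.30-fold by edgeR (adjusted p = 0.345).

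Between the knockdowns, 2 of the 7 tested genes differed in shYAPTAZ against shHIF2A, beside 18.4% of all tested genes called, 8.72% lower and 9.71% higher. VEGFA was 2.26-fold higher in shYAPTAZ (log2 fold change 1.18, SE 0.252, adjusted p = 0.00261) and ADM 3.79-fold higher (1.92, SE 0.419, adjusted p = 0.00571). With DESeq2 the count was 3, EDN1 included. In shJUNs against shHIF2A, edgeR called 0 of 7 beside 7.53% of all tested genes (3.17% lower and 4.36% higher), with 2 at an unadjusted p under 0.05. DESeq2 called VEGFA and ADM there (adjusted p = 0.0237 and 0.0308) and limma-voom called 0. In shYAPTAZ against shJUNs, edgeR called 0 of 7 beside 16.1% of all tested genes (8.27% lower and 7.87% higher), with 1 at an unadjusted p under 0.05, and limma-voom called 0. That gene was EDN1, which was 1.67-fold higher in shYAPTAZ (adjusted p = 0.0703), and which DESeq2 called (adjusted p = 0.0378). Without shYAPTAZ replicate 1 it was 1.34-fold higher by edgeR (adjusted p = 0.295). Over the 4 groups together, VEGFA, ADM, EDN1 and VEGFB were called, 4 of 7 beside 38.7% of all tested genes. The call of VEGFB in this test (adjusted p = 0.0481) was lost in 11 of 19 alternatives, with an adjusted p of up to 0.166.

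Libraries did not overlap between parental cells and the knockdown for 3 of the 7 tested genes in each of the 3 comparisons, beside 36.1% of all tested genes in shHIF2A, 39.5% in shJUNs and 36.2% in shYAPTAZ. Between the knockdowns the count was 2 of 7 in shJUNs against shHIF2A (31.2% of all tested genes), 5 of 7 in shYAPTAZ against shHIF2A (32.2%) and 2 of 7 in shYAPTAZ against shJUNs (33.3%). The counts against parental cells are near the background. The median log2 difference over the 7 tested genes was -1.21 in shHIF2A, -0.70 in shJUNs and -0.53 in shYAPTAZ, beside medians over all tested genes of 0.01, -0.00 and 0.02. Each of these medians is the value of a single gene that was not called, PGF in shHIF2A and shJUNs and VEGFC in shYAPTAZ.

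The make-up of the VEGF transcripts was compared between libraries as a description, with no test. Of the counts of VEGFA, VEGFB, VEGFC and PGF together, VEGFA held 66.8%, 61.0% and 65.3% in the parental libraries. The 95% exact (Clopper-Pearson) intervals, which cover counting error only, ran from 64.7% to 68.9%, 58.4% to 63.6% and 62.6% to 67.8%. Its share was 26.7%, 31.4% and 28.9% in shHIF2A. It was 37.6%, 49.8% and 41.7% in shJUNs and 51.4%, 40.9% and 39.8% in shYAPTAZ. Its parental share was above that of every knockdown library, and the shHIF2A share was below that of every other library. VEGFB held 21.9% to 31.0% of these counts in parental cells and 45.0% to 50.3% in shHIF2A. It was the most counted of the 4 ligands in all 3 shHIF2A libraries, and also in shJUNs replicate 1 (47.1%) and in shYAPTAZ replicates 2 (51.0%) and 3 (42.8%). The number of VEGFA counts per VEGFB count was 2.51 ± 0.51 in parental cells, 0.61 ± 0.07 in shHIF2A, 1.10 ± 0.33 in shJUNs and 1.05 ± 0.33 in shYAPTAZ. Summed over the 4 ligands, the level was 486 ± 175 CPM in parental cells, 174 ± 7.59 in shHIF2A, 207 ± 11.4 in shJUNs and 258 ± 47.1 in shYAPTAZ. These shares are of 3′ end counts, in which genes may be captured unequally, so they compare libraries and not the molar amounts of the ligands.

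**Figure D3:**
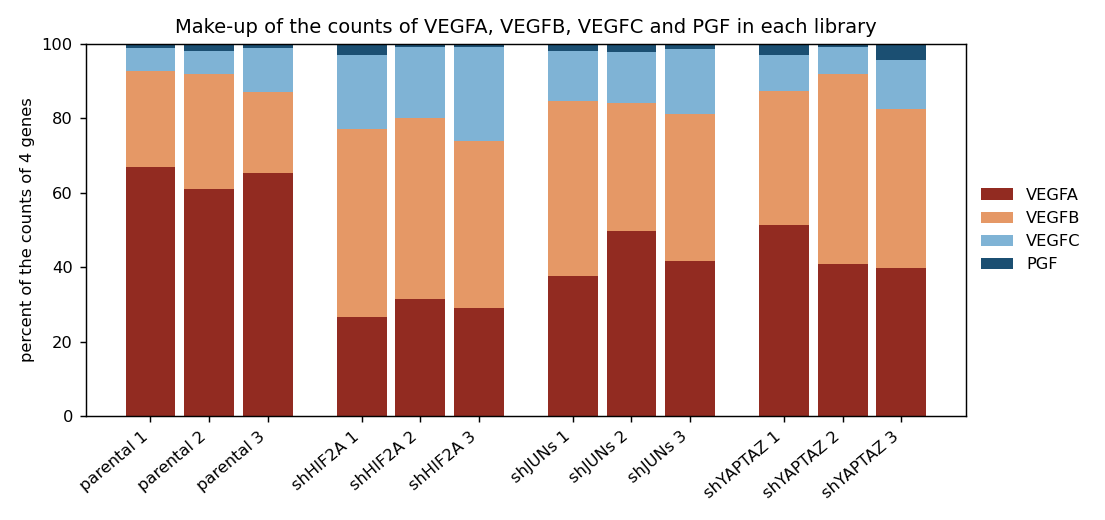
Share of each ligand (percent, vertical axis from 0 to 100) in the summed counts of VEGFA, VEGFB, VEGFC and PGF, with 1 bar per library. The VEGFA part is between 61.0% and 66.8% in the parental bars and between 26.7% and 31.4% in the shHIF2A bars.

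The genes whose pattern over the 12 libraries was most like that of each called gene were found among 8781 genes, by Pearson's r of log2 CPM. For VEGFA they were ADM (r = 0.978), KRCC1 (0.974) and the glucose transporter gene SLC2A1 (0.971). For ADM they were VEGFA (0.978), KRCC1 (0.968) and SLC2A1 (0.962). The 2 lists thus hold the same pair of other genes. EDN1 had other neighbours, which were SEMA6A (0.945), SYNPO (0.941) and ATP1B1 (0.939). VEGFB had CARHSP1 (0.928), GRAMD1A (0.886) and CNOT8 (0.877). The 12 points come from 4 groups and share their library scaling, and these values describe likeness only.

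The counts of called genes in the lists below stand beside 18.6%, 19.3% and 25.3% of all tested genes called in shHIF2A, shJUNs and shYAPTAZ. Among genes of the same pathways, the receptors of VEGF and the angiopoietins were scarce in these tumour cells. FLT1, KDR, FLT4 and TIE1 had 8, 7, 1 and 4 counts over the 12 libraries and TEK had none, so 2 of 7 receptor genes were tested, the co-receptors NRP1 and NRP2. None was called in shHIF2A or shJUNs by edgeR, and 1 rose in shYAPTAZ. NRP1, a co-receptor for VEGFA and for semaphorins, was at 87.9 ± 7.28 CPM in parental cells and 246 ± 119 CPM in shYAPTAZ (2.79-fold higher, adjusted p = 0.000301). NRP2, a co-receptor for VEGFC, was at 176 ± 34.1 CPM in parental cells and 129 ± 19.7 CPM in shYAPTAZ (adjusted p = 0.0542). The median log2 difference of these 2 genes was 0.37, 0.23 and 0.51 in shHIF2A, shJUNs and shYAPTAZ. The medians of all tested genes were 0.01, -0.00 and 0.02. In shYAPTAZ the value lies between the higher level of NRP1 and the lower level of NRP2, and neither gene shows it.

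Of 10 genes that process or receive endothelin and adrenomedullin, 4 had no count (ECE2, EDNRA, EDNRB and RAMP3) and 4 were tested. Of these, 2 fell in shHIF2A, 2 in shJUNs and 1 in shYAPTAZ, and none rose; the list's medians were -0.58, -0.22 and -0.26. ACKR3, a scavenger receptor that takes up CXCL12 and adrenomedullin, was at 89.2 ± 27.4 CPM in parental cells, 10.1 ± 3.68 in shHIF2A, 2.07 ± 1.64 in shJUNs and 24.3 ± 9.76 in shYAPTAZ. Its falls were 8.86-fold (adjusted p = 4.3e-05), 42.7-fold (adjusted p = 2.8e-07) and 3.61-fold (adjusted p = 0.00167). The shJUNs value rests on 26 counts, with 0.22 CPM in replicate 3. Leaving out single libraries, the log2 difference there ranged from -5.99 to -4.87, so the size of the fall is uncertain. PAM, the enzyme that amidates adrenomedullin, fell 1.78-fold in shHIF2A (adjusted p = 0.00609) and 1.57-fold in shJUNs (adjusted p = 0.0264). The second of these calls was lost in 4 of 20 alternatives, among them without parental replicate 1 (adjusted p = 0.172). ECE1, which cuts big endothelin to the active peptide, was not called against parental cells and was 1.46-fold higher in shJUNs than in shHIF2A (adjusted p = 0.0480).

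All 5 genes that mature VEGFC were tested. In shHIF2A 1 rose, in shJUNs 3 rose, and in shYAPTAZ 1 rose and 1 fell, with medians of 0.08, 0.94 and 0.15. PCSK5, a proprotein convertase, was at 18.4 ± 1.83 CPM in parental cells, 134 ± 9.08 in shJUNs (7.25-fold higher, adjusted p = 1.9e-08) and 5.40 ± 0.395 in shYAPTAZ (3.38-fold lower, adjusted p = 8.07e-05). CCBE1, a secreted protein that helps ADAMTS3 cut VEGFC, rose 1.84-fold in shHIF2A (adjusted p = 0.00544) and 1.92-fold in shJUNs (adjusted p = 0.00279). PCSK7, another convertase, rose 2.13-fold in shJUNs (adjusted p = 0.0175) and 2.12-fold in shYAPTAZ (adjusted p = 0.0152). Each call was lost in 3 of 20 alternatives, among them without parental replicate 1 (adjusted p = 0.0940 and 0.0805). VEGFC itself was not called in any of these lines.

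Among relatives of ANGPTL4 and partners of lipoprotein lipase, LPL itself had no count and 1 gene was tested. That gene, LMF1, which is needed to fold the lipase, was not called, with levels 3.34-fold, 4.16-fold and 4.60-fold under parental cells in shHIF2A, shJUNs and shYAPTAZ (adjusted p = 0.136, 0.0787 and 0.0588). LPL, the enzyme that ANGPTL4 inhibits, was thus not detected in these libraries.

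Of 19 other secreted angiogenic factors, 14 were tested. In all, 3, 4 and 5 of them were called in shHIF2A, shJUNs and shYAPTAZ. By direction, 2 rose and 1 fell in shHIF2A, 2 rose and 2 fell in shJUNs, and 3 rose and 2 fell in shYAPTAZ, with medians of -0.35, -0.35 and 0.33. PTN, the heparin-binding growth factor pleiotrophin, had 2 counts in the parental libraries together and 904 in those of shYAPTAZ, where its level was 95.4 ± 2.17 CPM. The ratio was 475-fold, with a 95% exact counting interval from 131 to 3924. In shHIF2A PTN had 15 counts, a ratio of 7.83 with an interval from 1.82 to 70.6. Both intervals cover counting error only. Replicate 3 of shHIF2A had no PTN count, and the edgeR call there was lost in 7 of 19 alternatives (adjusted p up to 0.394). Its relative MDK, midkine, was at 1.03 ± 0.318 CPM in parental cells and 14.4 ± 3.94 in shJUNs, from 10 and 186 counts. APLN, the ligand of the apelin receptor, was at 4.21 ± 2.55 CPM in parental cells and 18.0 ± 7.02 in shYAPTAZ, from 40 and 163 counts. PTN, MDK and APLN passed the filter on low counts through the group where each was high, so their values are a description and their calls support nothing. The counts of called genes in this list include PTN in shHIF2A and shYAPTAZ, MDK in shJUNs and APLN in shYAPTAZ. Those counts thus cannot be weighed against the background share. ANG, the ribonuclease angiogenin, fell 3.85-fold in shJUNs (adjusted p = 0.0496), a call lost in 10 of the other ways of processing.

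Of 11 secreted inhibitors of angiogenesis, 6 were tested. With SEMA3A counted, 2 rose in shHIF2A, 2 rose in shJUNs, and 3 rose and 1 fell in shYAPTAZ. The list's medians were 0.48, 0.48 and 0.25. SEMA3A, a semaphorin that binds NRP1, was at 1.06 ± 0.676 CPM in parental cells, 13.7 ± 4.23 in shHIF2A, 35.2 ± 2.32 in shJUNs and 15.9 ± 6.36 in shYAPTAZ. It was 12.2-fold, 31.2-fold and 13.9-fold higher, from 11 parental counts. SEMA3A is counted among the rises above, but it passed the filter on low counts through the knockdown groups. Its values are thus a description and its calls support nothing. The counts of called genes in this list thus cannot be weighed against the background share. THBS1, thrombospondin-1, rose 2.83-fold in shHIF2A (adjusted p = 0.000934), 2.75-fold in shJUNs (adjusted p = 0.00104) and 1.72-fold in shYAPTAZ (adjusted p = 0.0382). The last call was lost in 7 of 20 alternatives (adjusted p up to 0.217), among them without parental replicate 1 (adjusted p = 0.185). COL18A1, the collagen from which endostatin is cut, was at 255 ± 38.7 CPM in parental cells and fell 1.81-fold in shYAPTAZ (adjusted p = 0.000381).

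**Figure D4:**
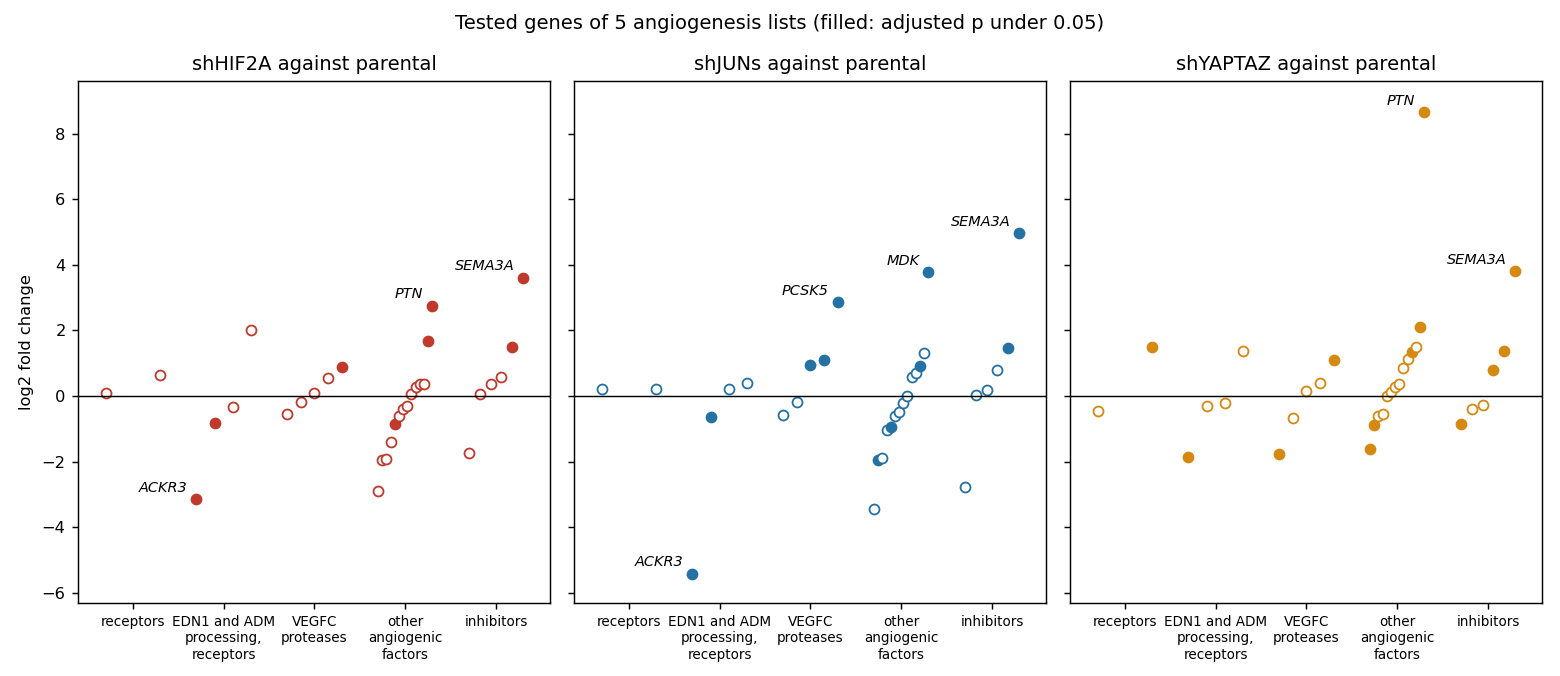
Log2 fold change against parental cells (vertical axis) of the tested genes of 5 lists (horizontal axis), with 1 panel per knockdown, 1 point per gene and filled points where the edgeR adjusted p was under 0.05. ACKR3 is lowest of the named genes in shHIF2A and shJUNs. SEMA3A is above 0 in all 3 panels, but its values rest on 11 parental counts and those of PTN on 2, so both are a description.

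The 6 markers of mural cells, which wrap vessels, summed to between 25.7 and 41.2 CPM in parental cells and 14.4 and 34.5 CPM in shHIF2A. Their sum was 61.9 to 79.9 CPM in shJUNs and 81.7 to 200 CPM in shYAPTAZ. Of the 3 that were tested, none was called in shHIF2A, 1 rose in shJUNs, and 1 rose and 1 fell in shYAPTAZ. The gene that rose was ACTA2, a smooth muscle actin, named after its values were seen, which was 2.91-fold higher in shJUNs (adjusted p = 0.00129) and 6.97-fold higher in shYAPTAZ (adjusted p = 1.27e-06). PDGFRB, a defining mural receptor, fell 8.79-fold in shYAPTAZ (adjusted p = 0.0158), where 2 of 3 libraries had no count. That call was lost in 3 of 19 alternatives (adjusted p up to 0.0666). The part of these genes in the differences above was not tested, nor was that of EPAS1, whose level was lower in all 3 knockdowns.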

How the data were processed

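BRB-seq libraries were analysed from 1 deposited table of raw counts per gene. Per the submitters' processing notes, the authors used Trim Galore and STAR on hg38; the sources used here name no counting program, use of strand or collapsing of molecular identifiers. Of 62705 lines, 3 held 1 broken gene and were left out. Symbols were found for 62624 genes, coordinates came from the deposited table, and all 10 genes are protein-coding in GENCODE 29.

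The counts were filtered with filterByExpr by group, scaled by TMM and fitted with edgeR 4.0.16 (R 4.3.3; robust quasi-likelihood, 1 mean per group, all 12 libraries), which left 12301 genes. P-values were adjusted over all of them. The common dispersion was 0.0628, and chi-squared per degree of freedom between replicates was 4.91 to 20.2, so no 2 replicates of a group were alike within counting error. Tested on simulated counts of shHIF2A against parental cells over 11872 genes, the test recovered 3.03% of 1.5-fold, 25.0% of 2-fold and 92.4% of 4-fold changes. Of its calls, 4.82% (4 calls) were false. The simulation changed 67, 67 and 66 genes, a far smaller part than was called in the data. The false share depends on that part, so it does not carry over to the calls above. DESeq2 1.42.0 and limma 3.58.1 (voom) were among 20 alternatives.

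Named were the 10 genes, the silenced genes with HIF1A and ARNT, up to 4 called genes of each pathway list with the smallest p among the 4 groups, genes without counts (not all are reported here), and the 3 genes most like each called gene with a mean of at least 10 CPM (log2 CPM, prior count 2). The genes and lists were chosen with earlier results of these data known.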

Additional observations from a re-analysis of the deposited data

How the results depend on the processing

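The falls of VEGFA, ADM and EDN1 against parental cells, and the differences of VEGFA and ADM between shYAPTAZ and shHIF2A, kept their direction and call in all 20 alternatives. The 22 calls lost in comparisons of pairs of groups were all of VEGFB, whose call among the 4 groups was lost in 11 of 19. For shJUNs against shHIF2A, the count of called genes was 0, but 2 with library size scaling only, 2 without the filter, 1 with a minimum of 10 CPM, 2 with DESeq2, 2 with a replicate block, 2 with those groups alone, and 0 to 2 leaving out single libraries. For shYAPTAZ against shJUNs it was 0, but 1 without the filter, with DESeq2 and with the block, and 0 to 1 leaving out single libraries. Same-numbered libraries correlated at -0.01 to 0.37 in their deviations, and 8 of 12 correlated best with their own number, which is a hint from the data only; no other count moved by over 1.5 times with the block.

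Signs turned only for differences that were not called. Leaving out single libraries, the log2 difference from parental cells ranged from -0.21 to 0.15 for VEGFC and -0.31 to 0.0092 for ANGPTL4 in shHIF2A, -0.17 to 0.076 for ANGPTL4 in shJUNs, and -0.47 to 0.094 for VEGFB and -0.17 to 0.65 for PGF in shYAPTAZ (PGF was at -0.026 with limma-voom). For shJUNs against shHIF2A it ranged from -0.083 to 0.11 for VEGFB, -0.066 to 0.25 for ANGPTL4 and -0.26 to 0.15 for EDN1. VEGFB was there at 0.0020 with relative log expression factors, 0.0019 with DESeq2, 0.034 with library size only, 0.011 without the filter and 0.0063 at a minimum of 10 CPM. The causes were not tested. Of 835 values of pathway genes called in the report, 65 lost the call and 0 turned sign. Depth limits ESM1, ANGPT1 and ANGPT2.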
